A study of Mus musculus with 12 samples.

Results

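The effect of binge ethanol on the mouse femoral shaft was estimated once over both genotypes of the series, as the ethanol term of a model that also held genotype. The estimate compared 6 ethanol with 6 PBS libraries and used 12 of the 12 libraries. The genes described are those that this larger comparison called and that were called in neither genotype. Each genotype's test compared 3 ethanol with 3 PBS libraries, within a fit of all 12 libraries that shares the spread among the 4 groups. RNA was sequenced in bulk from cortical bone of the femoral shaft in male mice aged 12 weeks. The groups labelled knockout carried Cat-/-, an altered gene of catalase, the peroxisome's enzyme against hydrogen peroxide, which also oxidises ethanol. Their comparators carried Cat+/+. Ethanol (EtOH) was gavaged once a day for 4 days, at 3 g per kg on the first 2 days, then 4 g and at last 4.5 g per kg, as a 31.5% (v/v) solution, and control mice received phosphate-buffered saline (PBS) in the same volume. The shafts were taken 6 hours after the final dose, with the marrow removed by centrifugation. Libraries 1 to 3 were knockout with PBS, 4 to 6 knockout with ethanol, 7 to 9 wild type with PBS, and 10 to 12 wild type with ethanol. Each library pooled RNA of 2 mice, so every p-value measures the spread between pools.

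Cortical bone holds osteocytes buried in mineralised matrix, osteoblasts that lay this matrix down, and osteoclasts that dissolve it, next to vessels and blood cells. Ethanol is oxidised to acetaldehyde by alcohol dehydrogenases, by a cytochrome P450 and by catalase, and aldehyde dehydrogenases turn acetaldehyde into acetate. A comparison with more libraries has a smaller standard error (SE), so that smaller differences can pass a test across all genes.

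Library totals ran from 19950222 to 28789308 counts. Cat, the targeted gene, lay between 65.9 and 74.2 CPM (counts scaled to a common library total) in the knockout libraries and between 128 and 175 CPM in wild type. Cat was thus lower in every library labelled knockout but not absent there; which part of the gene the allele alters is not stated in the sources used here, and a count over the whole gene does not tell which part was read. Cat did not differ detectably by ethanol in edgeR's quasi-likelihood test (log2 difference 0.08, SE 0.07, adjusted p = 0.48). On principal components of log2 CPM, the first component (42% of the variance) placed libraries 8, 9 and 12 between 46.9 and 52.6, apart from the rest, and the second (15.6%) separated all ethanol libraries (11 to 30.7) from all PBS libraries (-22.8 to -9.8). Libraries 8, 9 and 12 also held the largest skeletal muscle share, 3.11 to 3.75% of counts for 16 muscle genes against 0.139 to 1.98% elsewhere. All 21 osteoblast genes of the marker list passed the filter on low counts, and together they made up 2.5 to 4.49% of counts in PBS libraries and 1.36 to 2.83% in ethanol libraries. Blood cell RNA was present too: 13 erythroid genes took 1.11 to 2.27% of counts and 15 neutrophil genes 2.3 to 4.03%. Across bulk samples, fewer cells of a type and less RNA per cell cannot be told apart.

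**Figure D1:**
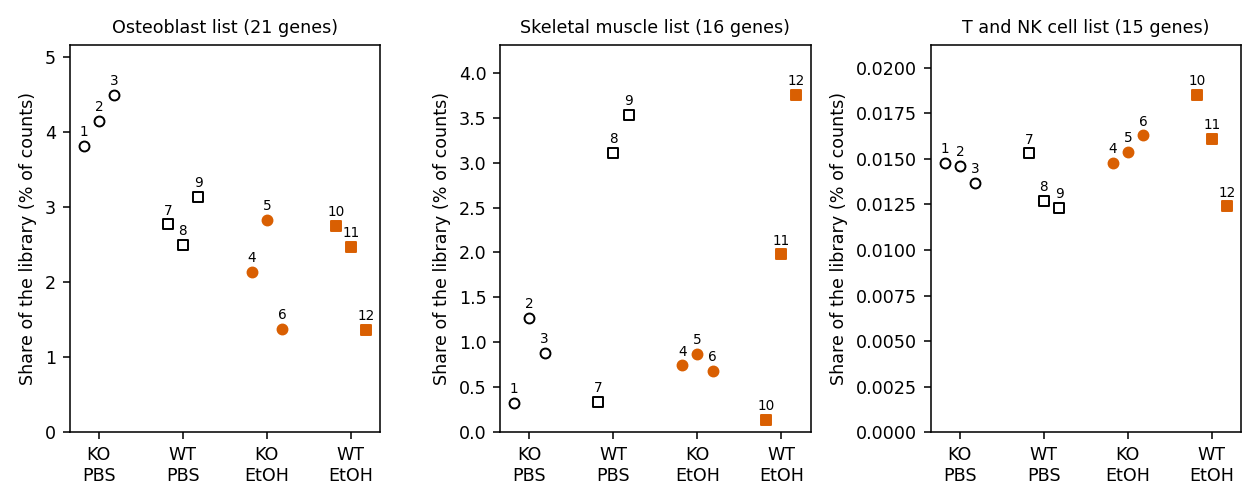
Share of each library's counts (%, linear axes from 0) taken by 3 marker lists, by group; numbers beside the points are library numbers, circles are knockout, squares wild type, and filled symbols ethanol. The osteoblast share was lowest in ethanol libraries 6 and 12, and the muscle share was highest in libraries 8, 9 and 12.

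Ethanol changed 2210 of 18161 tested genes (12.2%) at an adjusted p under 0.05 in edgeR's test, 1040 higher (5.73%) and 1170 lower (6.44%). Within a genotype, edgeR's fit of the 4 groups over all 12 libraries called 229 genes in wild type (1.26%) and 339 in the knockout (1.87%), 451 in all. DESeq2 called 731 in wild type and 986 in the knockout (1310 in all), and edgeR with a muscle covariate (the mean log2 CPM of the 16 muscle genes) 507 and 863 (1061 in all). Of the 451, 436 were also called over both genotypes. The remaining 1774 genes (9.77% of those tested) were called only over both genotypes, 831 of them higher (4.58%) and 943 lower (5.19%). Their effects were small: the median fold change in either direction was 1.22, with a range of 1.08 to 4.91, against a median of 1.43 for the 436. A fold of at least 2 was reached by 66 of the 1774, 32 of them higher and 34 lower.

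These genes had the same direction in both genotypes in all 1774 cases, where 73.4% of all tested genes did, a share that the choice of genes called over both genotypes fixes in part. Unadjusted, the within-genotype test gave a p under 0.05 in both genotypes for 1143 of them (64.4%) and in 1 genotype for the other 631 (35.6%). Nothing is read from this split, which is fixed in part by choosing these 1774 genes on the same libraries. Their median SE was 0.07 on the log2 scale over both genotypes and 0.10 in each genotype, 1.47 times as large in wild type and 1.46 times in the knockout by the median ratio. The 6 ethanol and 6 PBS libraries did not overlap for 744 of the 1774 (41.9%), against 6.73% of all tested genes; within each genotype, 1083 (61%) did not overlap on the same side, against 9.62% of all. These shares come from the libraries that the test itself used. Protein-coding genes made up 92.4% of the 1774 and 81.3% of all tested genes. No gene passed edgeR's test of a difference between the genotypes' ethanol effects, where 359 (1.98%) had an unadjusted p under 0.05. Of the 1774, 3 had such a p, a count that the choice of these genes largely fixes, so nothing is read from it. DESeq2 called 1 difference, in the immunoglobulin segment Igkv6-25, a gene named after its values were seen.

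The count of 1774 rested on the spread that the fit shares among its 4 groups. When each genotype was fitted with its own 6 libraries alone, 4 genes were called in wild type and 1669 in the knockout, and 983 genes were then called only over both genotypes, 921 of them among the 1774. In DESeq2, 1604 genes were called only over both genotypes, 991 of them among the 1774, and with the muscle covariate 1988 were, 1301 of them among the 1774. Without libraries 8, 9 and 12 the count was 1049, with 1 wild-type PBS library left, and without libraries 6 and 12 it was 1100. Leaving out 1 library gave 1238 to 1789. The total of 2210 fell to 1442 without library 2 and to 1351 without library 3; the genes higher fell to 646, 607 and 678 without libraries 2, 3 and 6, and the genes lower to 744 without library 3.

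**Figure D2:**
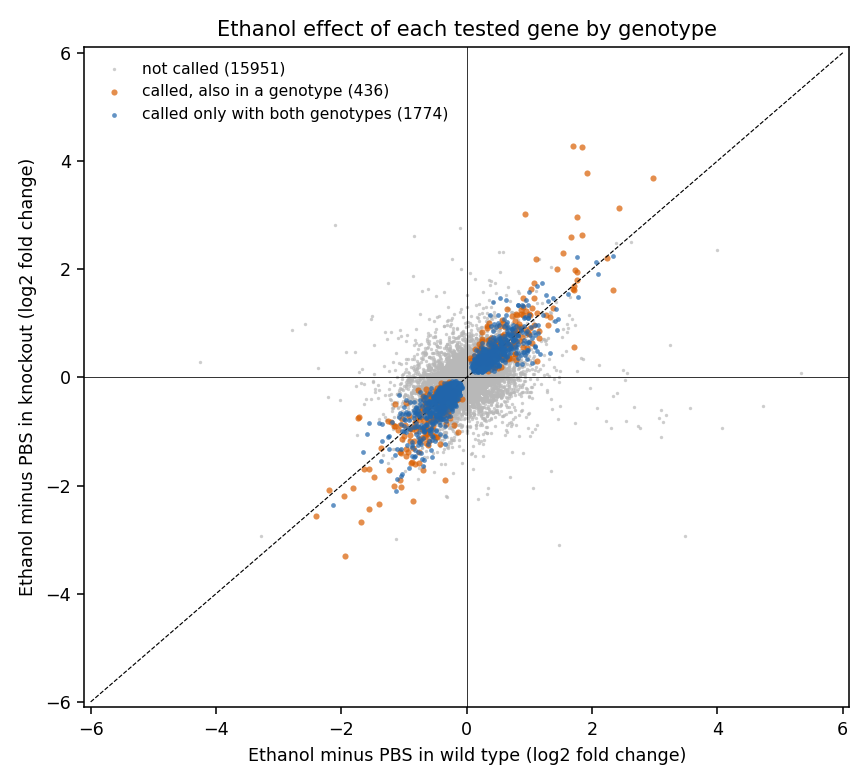
Log2 difference between ethanol and PBS of every tested gene in wild type (horizontal) and knockout (vertical); the dashed line marks equal effects. The 1774 genes called only over both genotypes (blue) lie in the quadrants of equal sign and mostly nearer to the origin than the 436 also called within a genotype (orange).

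**Figure D3:**
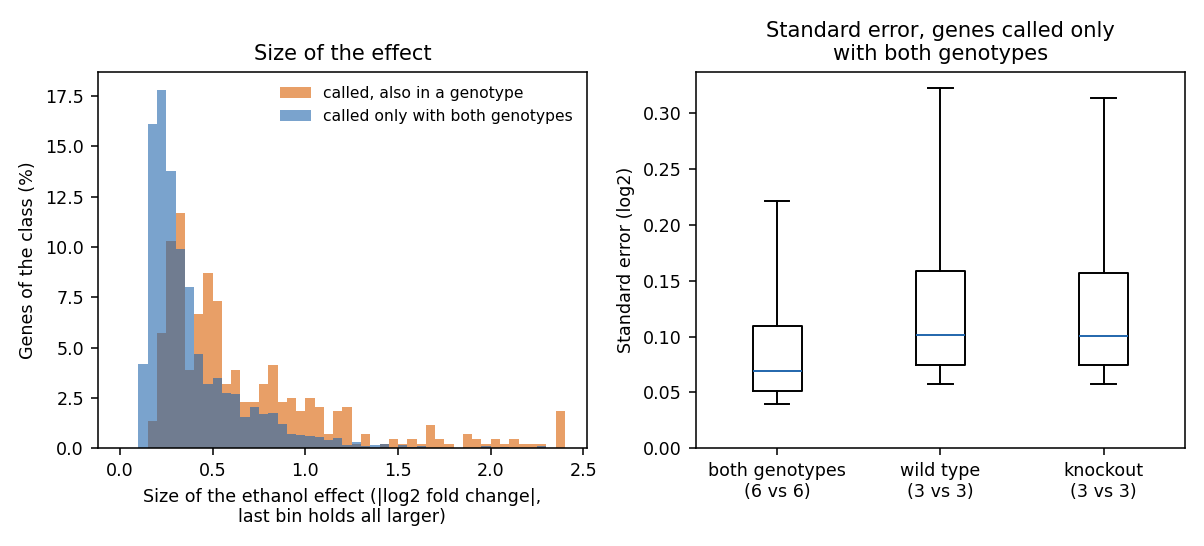
Left, size of the ethanol effect (log2, without sign) as the percentage of genes per bin, for the 1774 genes called only over both genotypes and the 436 also called in a genotype. Right, SE of the 1774 in each comparison (line median, box quartiles, whiskers 5th to 95th percentile). The medians are 1.22-fold against 1.43-fold on the left, and 0.07 against 0.10 for either genotype on the right.

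Among the genes called only over both genotypes, the largest rise was in Spock2 (of named genes with a mean of at least 1 CPM and with ethanol and PBS libraries apart in each genotype), which encodes a secreted proteoglycan of the extracellular matrix. Spock2 (ENSMUSG00000058297, chromosome 10, 60106219 to 60135198, GRCm38) ranged from 5.86 to 9.86 CPM (median 8.03) in PBS libraries and from 11 to 27.8 CPM (median 23) in ethanol libraries. Every ethanol library lay above every PBS library. On the log2 scale ethanol exceeded PBS by 1.43 (SE 0.23; edgeR adjusted p = 0.0036), made up of 1.38 in wild type (adjusted p = 0.086) and 1.47 in the knockout (adjusted p = 0.059). Abca8a, a lipid transporter of the ABC family, stood between 22.3 and 41.3 CPM (median 36.4) with PBS and between 47 and 75.2 CPM (median 66.1) with ethanol, also without overlap. Its log2 difference was 0.91 (SE 0.14, adjusted p = 0.0030). Fmo2, a flavin-containing monooxygenase that oxidises foreign compounds, had 36.4 to 63.5 CPM (median 57.7) with PBS and 64.3 to 152 CPM (median 91.5) with ethanol, a difference of 0.89 (SE 0.15, adjusted p = 0.0046). The arms of Fmo2 came close but did not overlap, and its highest value was in knockout library 6.

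Smaller transcripts rose as well. Aspg, an asparaginase, went from a median of 0.947 to 2.15 CPM (log2 difference 1.18, adjusted p = 0.0028). Cxcl13, the chemokine that attracts B cells, went from 0.958 to 2.24 CPM (1.03, adjusted p = 0.011), and Kcnj15, a potassium channel, from 2.16 to 3.73 CPM (0.82, adjusted p = 0.0088). The arms of Aspg and Kcnj15 did not overlap, whereas those of Cxcl13 did.

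Among the genes that fell, Unc5b (ENSMUSG00000020099, chromosome 10, 60762593 to 60831581), a netrin receptor, lay between 87 and 126 CPM (median 114) with PBS and between 28.2 and 66.1 CPM (median 58.1) with ethanol. Its difference of -1.07 (SE 0.19) had an adjusted p of 0.0073, with the lowest value in library 6. Slc8a3, a sodium and calcium exchanger of the plasma membrane, had 30 to 42.7 CPM (median 34.7) with PBS and 8.29 to 24.9 CPM (median 18.4) with ethanol (-1.03, SE 0.20, adjusted p = 0.0079). Its arms were apart in both genotypes. Another 3 transcripts whose arms did not overlap were Ptgs2, the inducible cyclooxygenase of prostaglandin synthesis (median 1.26 to 0.726 CPM, log2 difference -0.99, adjusted p = 0.0083), the membrane-bound transcription factor Creb3l3 (3.47 to 1.71 CPM, -1.10, adjusted p = 0.0070) and the glutamate receptor Grm4 (1.45 to 0.744 CPM, -0.99, adjusted p = 0.017).

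The adjusted p nearest to the threshold came from genes named here for that reason alone, as values. Just inside were Calu, Exosc1 and Mrpl48 (adjusted p = 0.0498, 0.0497 and 0.0496, log2 differences of -0.17, -0.18 and -0.23), and just outside were Cdc42, Slc39a13 and Fam136a (0.05004, 0.0502 and 0.0502, log2 differences of -0.14, -0.25 and -0.21).

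**Figure D4:**
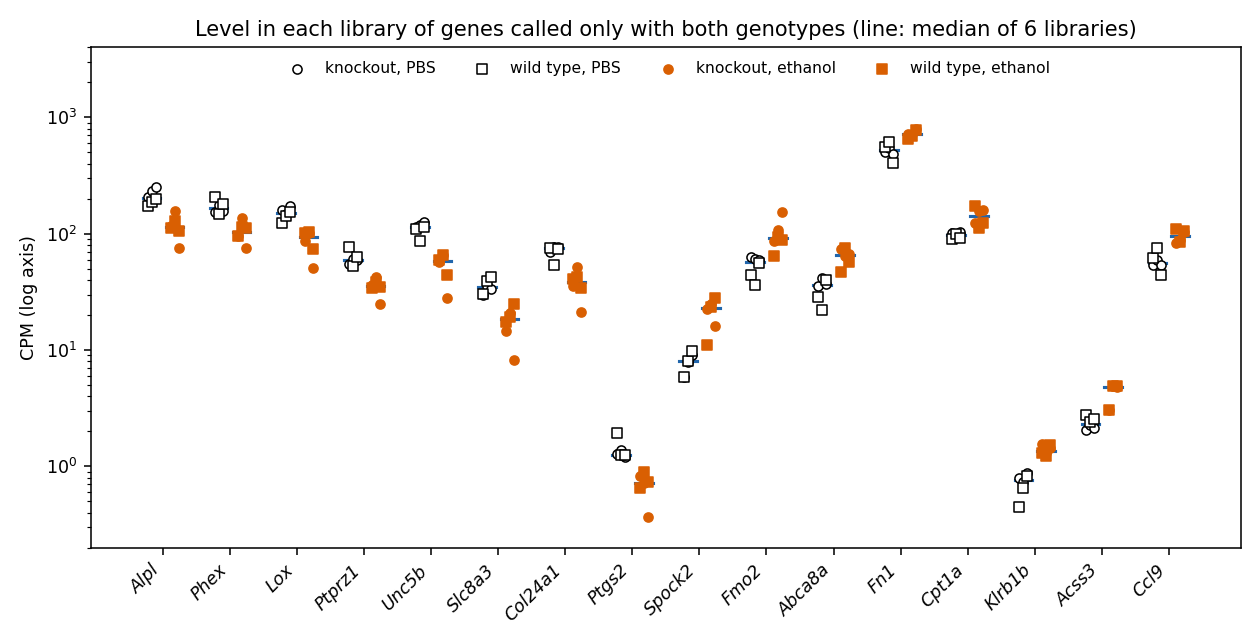
CPM of 16 genes called only over both genotypes in each of the 12 libraries (logarithmic axis); circles are knockout, squares wild type, open symbols PBS, filled symbols ethanol, and the bars are medians of 6 libraries. The 8 genes on the left have all ethanol libraries below all PBS libraries, and the 8 on the right the reverse. These 16 genes were chosen with their values known, and their separation is not typical of the class. Of the 1774 genes called only over both genotypes, 744 (41.9%) had ethanol and PBS libraries that did not overlap.

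Many genes of bone formation fell. Of 21 osteoblast genes tested, 11 were called lower, 7 of them only over both genotypes, and 20 had a negative difference; the list's median was -0.65 against -0.01 over all tested genes. Alpl, the alkaline phosphatase that frees phosphate for mineral (ENSMUSG00000028766, chromosome 4, 137741733 to 137796384), had 174 to 254 CPM (median 203) with PBS and 74.8 to 158 CPM (median 114) with ethanol. All ethanol libraries lay below all PBS libraries, with library 6 lowest. Alpl differed by -0.84 (SE 0.15, adjusted p = 0.0068), with -0.69 in wild type and -0.99 in the knockout. Sp7, the osteoblast transcription factor also called osterix, went from a median of 110 to 70.4 CPM (-0.76, SE 0.18, adjusted p = 0.022) and did not pass without library 3 (adjusted p = 0.054). Smpd3, a sphingomyelinase needed for mineralisation, went from 86.1 to 32.8 CPM (-1.44, SE 0.33, adjusted p = 0.022) and did not pass without library 3 (adjusted p = 0.051) or library 4 (adjusted p = 0.053). The osteocalcin genes Bglap and Bglap2 were near the threshold (adjusted p = 0.046 and 0.037), did not pass when a single library was left out, for Bglap any but library 10 (adjusted p up to 0.0982) and for Bglap2 any but 8, 10 and 12 (up to 0.081), and are near-identical copies that counting may have split.

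The osteoblast count moved with single libraries: 6 genes were lower without library 3 and 7 without library 4. Without libraries 8, 9 and 12, 4 were called lower and the median was -0.61, and the adjusted p of Alpl was 0.0702, of Sp7 0.077 and of Smpd3 0.0865, with differences of -0.84, -0.79 and -1.42. The summed osteoblast level was lowest in ethanol libraries 6 and 12 (1.38 and 1.36% of counts). Without these libraries, 9 genes were lower and the median was -0.50.

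Of 16 osteocyte genes tested, 5 were called lower, and all 5 only over both genotypes; 15 of the 16 had a negative difference. The list took 0.361 to 0.579% of counts with PBS and 0.248 to 0.421% with ethanol. Ptprz1, a receptor phosphatase of osteocytes and neural cells, had 52.7 to 76.6 CPM (median 59.7) with PBS and 24.7 to 42.5 CPM (median 35.7) with ethanol, without overlap. It differed by -0.80 (SE 0.12, adjusted p = 0.0024), by -0.84 in wild type and -0.76 in the knockout. Phex, the phosphate-regulating endopeptidase mutated in X-linked hypophosphataemia, had 149 to 208 CPM (median 167) with PBS and 75.2 to 137 CPM (median 104) with ethanol, again without overlap (-0.70, SE 0.13, adjusted p = 0.0068). The other 3, the pyrophosphate transporter Ank, the hyaluronan receptor Cd44 and the phosphate transporter Slc20a2, differed by -0.25, -0.21 and -0.19. Ank did not pass without library 2, 3 or 6 (adjusted p up to 0.0577), Cd44 without library 1, 2, 4, 6 or 11 (up to 0.0724) and Slc20a2 without any 1 library except 5, 7 and 10 (up to 0.0958). The count fell to 2 without library 2 or 6 and to 3 without library 1, 3, 4 or 11, and was 10 without library 5. It was 3 without libraries 6 and 12, and 9 in DESeq2.

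Matrix genes moved in both directions. Of 41 matrix genes and matrix-processing enzymes tested, 14 were called lower and 4 higher, 10 and 3 of them only over both genotypes, and the median was -0.46. Lox, the oxidase that cross-links collagen, had 123 to 174 CPM (median 150) with PBS and 50.4 to 103 CPM (median 93.2) with ethanol (-0.80, SE 0.17, adjusted p = 0.012), and its arms were apart. Col24a1, a minor fibrillar collagen of bone, went from a median of 74.8 to 38.2 CPM (-0.93, SE 0.18, adjusted p = 0.010). Lower values were also called for Bmp1, the procollagen C-proteinase (194 to 141 CPM, -0.57, adjusted p = 0.012), its enhancer Pcolce (111 to 80.1 CPM, -0.53, adjusted p = 0.019) and the collagen prolyl hydroxylase P4ha2 (26.5 to 18 CPM, -0.65, adjusted p = 0.0099). The ethanol and PBS libraries of all these 5 genes were apart.

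Fibronectin moved the other way. Fn1, the gene of this cell-binding matrix protein, had 409 to 614 CPM (median 522) with PBS and 658 to 795 CPM (median 715) with ethanol, and every ethanol library exceeded every PBS library. The log2 difference was 0.49 (SE 0.09, adjusted p = 0.0041). Plod1, a lysyl hydroxylase of collagen, went from 57.1 to 66.3 CPM with overlapping arms (0.21, SE 0.05, adjusted p = 0.012). The lower count of the matrix list was 9 without library 2, 3 or 9, 23 in DESeq2, and 7 without libraries 8, 9 and 12, when Lox (adjusted p = 0.0928), Pcolce (0.129) and P4ha2 (0.0565) did not pass.

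Among 18 cadherins, pannexins and connexins, 7 were called lower, 5 only over both genotypes. Fat1, an atypical cadherin, went from a median of 199 to 137 CPM (-0.55, SE 0.12, adjusted p = 0.013), with overlapping arms, and had an adjusted p of 0.056 without libraries 6 and 12. Pcdh7, a protocadherin, had 63.1 to 79.5 CPM (median 67.2) with PBS and 26.5 to 51.6 CPM (median 42.2) with ethanol (-0.73, SE 0.14, adjusted p = 0.0068). Its arms were apart, but 21.1% of its exon length is shared with a gene on the opposite strand, and the sources used here do not say whether counting used strand. Without libraries 8, 9 and 12 the adjusted p of Pcdh7 was 0.0527, and without libraries 6 and 12 the count of 7 was 4.

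Some growth factor genes were called. Tgfbr3, the co-receptor betaglycan, rose from 37.2 to 60.1 CPM (median 52.9) with PBS to 64.1 to 85.5 CPM (median 72.5) with ethanol (0.51, SE 0.08, adjusted p = 0.0024). Bmp3, which antagonises other bone morphogenetic proteins, went from a median of 125 to 83.9 CPM (-0.59, SE 0.13, adjusted p = 0.014; 0.0708 without libraries 8, 9 and 12). The arms of both genes were apart. In the whole BMP and TGF-beta list, 2 of 35 genes were called in each direction, near the shares over all tested genes (5.73% higher and 6.44% lower); the lower count was 1 without library 1, 2, 3, 4, 7 or 10, 4 without library 5 or 11 and 5 without library 8. The insulin receptor Insr rose from a median of 93.1 to 111 CPM without overlap (0.32, SE 0.07, adjusted p = 0.011), as 1 of 4 genes called higher among 18 of the insulin-like growth factor list. Sox9, the cartilage transcription factor, fell from 4.36 to 2.52 CPM (-0.73, SE 0.17, adjusted p = 0.015), also without overlap.

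A minority of osteoclast genes were called higher, though most had a positive difference. Of 19 tested, 5 were called higher and 1 lower, 4 and 1 of them only over both genotypes. Differences were positive for 17 of the 19, with a median of 0.20. The gene called lower passed only without library 9, 11 or 12 when single libraries were left out. Tcirg1, a subunit of the proton pump that acidifies the resorption pit, had 207 to 244 CPM (median 223) with PBS and 249 to 315 CPM (median 275) with ethanol, and the arms did not overlap. It rose by 0.30 (SE 0.06, adjusted p = 0.0099). Jdp2, a transcription factor of osteoclast differentiation, went from a median of 57 to 70.8 CPM (0.30, SE 0.05, adjusted p = 0.0043), again with arms apart. The higher count was 3 without library 1, 4, 7 or 9, and 3 without libraries 6 and 12. The osteoclast list took 0.348 to 0.435% of counts in PBS libraries and 0.392 to 0.575% in ethanol libraries.

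Ribosome biogenesis genes were lower almost throughout. Of 30 tested, 23 were called lower, 16 only over both genotypes, and all 30 had a negative difference (median -0.28). Nolc1, a nucleolar phosphoprotein, had 78.7 to 87.4 CPM (median 84.1) with PBS and 50.2 to 72.2 CPM (median 64.8) with ethanol, and differed by -0.39 (SE 0.07, adjusted p = 0.0030). Nop58, a core protein of the box C/D particles that methylate ribosomal RNA, went from a median of 93.2 to 71.5 CPM (-0.38, SE 0.06, adjusted p = 0.0035). Gar1, of the box H/ACA particles that make pseudouridine, went from 29.8 to 24.2 CPM (-0.34, SE 0.06, adjusted p = 0.0035), and Polr1b, a subunit of RNA polymerase I, from 28.3 to 24.5 CPM (-0.24, SE 0.05, adjusted p = 0.013). The arms of all 4 were apart. Leaving out 1 library left 17 to 22 of the 30 called lower, and leaving out libraries 8, 9 and 12 left 17, with a median of -0.20.

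Of 31 cell cycle genes, 6 were called lower, all 6 only over both genotypes. These 6 encode parts of the DNA replication helicase or the sliding clamp of DNA replication. The list as a whole had 17 positive and 14 negative differences, with a median of 0.03, and the 6 are named for having been called. Mcm6 had 207 to 254 CPM (median 230) with PBS and 159 to 211 CPM (median 195) with ethanol (-0.26, SE 0.05, adjusted p = 0.0083), and Mcm5 went from a median of 193 to 168 CPM (-0.24, SE 0.05, adjusted p = 0.013). The arms of both overlapped. Mcm3, Mcm4, Mcm7 and Pcna, the sliding clamp, did not pass without library 5 (adjusted p = 0.059, 0.0573, 0.0514 and 0.0534), which left 2 genes called. Mcm3 and Mcm4 also did not pass without library 1 (0.0618 and 0.0598), Mcm3 without library 11 (0.0503) and Pcna without library 3 (0.0584). 

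Some chaperones of the endoplasmic reticulum (ER), where collagen and other secreted proteins fold, were slightly lower. Of 23 genes of the unfolded protein response tested, 7 were called lower, 4 only over both genotypes, with a median of -0.11; without libraries 8, 9 and 12, 4 were called lower, and in DESeq2 11. Hspa5, the main ER chaperone, had 450 to 505 CPM (median 468) with PBS and 377 to 428 CPM (median 414) with ethanol. No ethanol library reached the lowest PBS library. It differed by -0.20 (SE 0.04, adjusted p = 0.011), or -0.27 in wild type and -0.14 in the knockout. Pdia4, a disulfide isomerase, went from a median of 99.3 to 83.3 CPM with overlapping arms (-0.24, SE 0.05, adjusted p = 0.0098). Hsp90b1, the ER form of the chaperone Hsp90, had 511 to 549 CPM (median 521) with PBS and 452 to 498 CPM (median 472) with ethanol (-0.14, SE 0.04, adjusted p = 0.034), with arms apart, and did not pass without library 1, 2, 3, 5, 6, 7 or 11 (adjusted p = 0.0746, 0.0675, 0.0596, 0.0756, 0.0761, 0.0616 and 0.0655).

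The 2 chaperone genes carry the ER stress element in the 250 bases before their RefSeq start (GRCm38.p6), and these windows are shown because the element is rare there. The motif searched was CCAAT and CCACG with 9 bases of any kind between them, on both strands. Capitals mark the matches, and both sequences run 5′ to 3′ on the gene's strand. Hspa5 lies on the plus strand (chr2:34771840-34772089, 1 match) and Hsp90b1 on the minus strand (chr10:86705445-86705694, 2 matches).
Hspa5: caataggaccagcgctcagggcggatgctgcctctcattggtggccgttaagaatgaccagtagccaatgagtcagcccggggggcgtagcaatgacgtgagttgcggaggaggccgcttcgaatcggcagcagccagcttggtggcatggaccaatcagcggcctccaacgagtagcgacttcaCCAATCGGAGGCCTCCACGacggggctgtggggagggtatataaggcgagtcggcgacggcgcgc
Hsp90b1: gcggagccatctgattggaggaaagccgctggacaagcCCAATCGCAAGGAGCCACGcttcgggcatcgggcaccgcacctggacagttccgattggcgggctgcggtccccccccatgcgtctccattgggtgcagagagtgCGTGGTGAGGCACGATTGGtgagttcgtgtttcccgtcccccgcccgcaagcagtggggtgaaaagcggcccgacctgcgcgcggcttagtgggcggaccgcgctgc
The element was found in 18 of 15623 windows (0.115%). These windows belonged to 18 of the 12290 tested genes with a window, 9 of them among the 20 genes of the unfolded protein response with one. Of these 9, 2 were called lower and the other 7 were not called. Of the 18, 3 were called, a share near the 12.2% of all tested genes, and these were lower and called only over both genotypes: Hspa5, Hsp90b1 and the RNA-binding protein Hnrnpa3 (-0.19, adjusted p = 0.0093).

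Of 24 sterol synthesis genes tested, 13 were called lower and 1 higher, 4 and 1 only over both genotypes, with a median of -0.35. Idi1, the isomerase that makes the building block of the isoprenoid chain, had 8.51 to 11.7 CPM (median 9.91) with PBS and 5.34 to 7.95 CPM (median 6.56) with ethanol, without overlap (-0.59, SE 0.11, adjusted p = 0.0047). Fatty acid synthase, Fasn, had 62.6 to 69.9 CPM (median 64.6) with PBS and 45.8 to 59.4 CPM (median 54.8) with ethanol (-0.28, SE 0.06, adjusted p = 0.0095), and its arms were apart. The desaturase Fads1 rose from a median of 52.8 to 62.1 CPM with overlap (0.26, SE 0.04, adjusted p = 0.0038). The lower count of the sterol list stayed between 12 and 14 when any 1 library was left out, and the 1 higher gene passed only without library 3, 7 or 11.

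Some genes of lipid use rose. Of the 30 genes of this list, 18 had a positive and 12 a negative difference, with a median of 0.03. Without libraries 6 and 12 the median was -0.07. Cpt1a, the enzyme that admits fatty acids to mitochondria, had 90.9 to 103 CPM (median 98.4) with PBS and 113 to 175 CPM (median 141) with ethanol, and the arms did not overlap. It differed by 0.55 (SE 0.10, adjusted p = 0.0047). Angptl4, a secreted inhibitor of lipoprotein lipase, went from a median of 13.2 to 28.8 CPM (1.08, SE 0.23, adjusted p = 0.012), with overlap. In the list of lipid use 6 of 30 genes were higher and 1 lower, 3 of the higher only over both genotypes; 3 were lower without library 7 and 2 without library 12, and 11 were higher and 2 lower without libraries 8, 9 and 12. Of 26 genes of the glucocorticoid response, 9 were higher, 4 only over both genotypes. These 4 were Angptl4, Sesn1, Zbtb16 (1.39, SE 0.35, adjusted p = 0.030) and Tsc22d3 (0.80, SE 0.21, adjusted p = 0.035). Zbtb16 did not pass without library 1, 2, 3, 5, 6, 7, 11 or 12 (up to 0.0711) and Tsc22d3 without library 1, 3, 5, 6, 9 or 12 (up to 0.0821). With the muscle covariate, 15 of the 26 were higher. Sesn3, a sestrin that restrains growth signalling, went from 36.3 to 45 CPM with overlap (0.28, SE 0.06, adjusted p = 0.014), and its relative Sesn1 from 71.3 to 83 CPM (0.27, SE 0.07, adjusted p = 0.020; 0.0509 without library 2). In the list of autophagy and FoxO targets, 6 of 27 genes were higher, 4 only over both genotypes, 3 without library 2 and 11 with the muscle covariate.

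Of 18 enzymes of ethanol and aldehyde metabolism tested, 3 were higher and 1 lower. Over all tested genes, 5.73% were higher and 6.44% lower. None of the 4 was called within a genotype, where only 2.48% of all tested genes were called in 1 or both, so nothing is read from this. Without libraries 6 and 12, 1 was higher and 1 lower. Acss3, a mitochondrial acyl-CoA synthetase, had 2.06 to 2.78 CPM (median 2.32) with PBS and 3.04 to 4.95 CPM (median 4.83) with ethanol, without overlap (0.86, SE 0.15, adjusted p = 0.0045). Of its exon length, 33.9% is shared with Ppfia2 on the opposite strand, so its reads are uncertain. Aldh3a1, an aldehyde dehydrogenase, went from a median of 3.36 to 4.96 CPM with overlap (0.61, SE 0.15, adjusted p = 0.018), with an adjusted p of 0.0514 without libraries 6 and 12. Adh7, an alcohol dehydrogenase, was low, at 0.631 and 1.07 CPM (0.87, SE 0.22, adjusted p = 0.024), and did not pass without library 1, 4, 6 or 11 (adjusted p = 0.0567, 0.0553, 0.0506 and 0.0527). Aldh1a2, which makes retinoic acid, went from 2.99 to 1.63 CPM with overlap (-0.84, SE 0.18, adjusted p = 0.012).

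Of 16 retinoic acid genes tested, 5 were called higher and 1, Aldh1a2, lower, 3 and 1 of them only over both genotypes; the other 10 were not called. Rarb, a retinoic acid receptor, had 1.37 to 2.87 CPM (median 1.92) with PBS and 3.24 to 4.66 CPM (median 3.3) with ethanol (0.83, SE 0.18, adjusted p = 0.011). Its arms were apart, but 34.1% of its exon length is shared with Top2b on the opposite strand, whose mean level was 200 CPM. The higher count was 3 without library 1, 2 or 5, and 3 without libraries 6 and 12. Among 35 antioxidant genes, Hmox1, the haem oxygenase, went from 144 to 302 CPM (median 271) with PBS to 97.2 to 189 CPM (median 164) with ethanol, with overlap (-0.65, SE 0.15, adjusted p = 0.017). In that list 1 gene was higher and 4 lower, and 2 were lower without library 1, 2, 3, 4 or 9. The called share of 14.3% was near the 12.2% of all tested genes, with 17 positive and 18 negative differences. The higher count was 0 without library 1 or 4 and 2 without library 11. Without libraries 8, 9 and 12, 3 were higher and 2 lower, and without libraries 6 and 12, 0 and 2.

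Some genes of cytotoxic lymphocytes rose. Of 15 markers of T and natural killer (NK) cells, 5 were higher, 4 only over both genotypes. Differences were positive for 10 of the 15 and negative for 5, with a median of 0.11. Klrb1c, the receptor NK1.1, had 4.63 to 5.6 CPM (median 4.98) with PBS and 6.21 to 7.42 CPM (median 7.12) with ethanol, and all ethanol libraries were higher. It differed by 0.45 (SE 0.08, adjusted p = 0.0044). Prf1, the pore-forming perforin, went from a median of 1.88 to 3.1 CPM without overlap (0.80, SE 0.20, adjusted p = 0.020). Gzmb, the protease granzyme B, went from 1.64 to 2.9 CPM with overlap (0.72, SE 0.17, adjusted p = 0.016). A related receptor, Klrb1b, had 0.443 to 0.868 CPM with PBS and 1.22 to 1.55 CPM with ethanol (0.95, SE 0.16, adjusted p = 0.0034). Of 27 Klr genes, a family examined after its values were seen, 5 were called higher and 1 lower. Their differences were positive for 16 and negative for 11. Over all tested genes, 5.73% were called higher and 6.44% lower. The whole T and NK list took 0.0123 to 0.0153% of counts with PBS and 0.0124 to 0.0185% with ethanol. These sums overlap, and their part in the result was not tested.

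Other inflammatory genes went both ways: of 33 genes of the NF-kB list, 5 were higher and 4 lower, 2 and 4 only over both genotypes. Ccl9, a myeloid chemokine, had 43.8 to 75.6 CPM (median 56.3) with PBS and 84 to 110 CPM (median 95) with ethanol, without overlap (0.72, SE 0.12, adjusted p = 0.0033). Relb, an NF-kB subunit, went from a median of 17.8 to 14.3 CPM (-0.28, SE 0.07, adjusted p = 0.019), with an adjusted p of 0.0537 without library 3. The lower count was 2 without library 1, 2, 3 or 4, 2 without libraries 8, 9 and 12, and 1 without libraries 6 and 12. The scavenger receptor Cd163 of macrophages went from 61.5 to 83.1 CPM with overlap (0.49, SE 0.12, adjusted p = 0.019). It was 1 of 3 higher among 15 macrophage genes, a count of 1 without library 1, 2, 3, 4, 6, 9, 10 or 11, and the list's share of counts was 0.41 to 0.615% with PBS and 0.53 to 0.617% with ethanol.

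Several lists held no called gene in edgeR's test. The 16 muscle genes, 10 platelet genes, 13 mitochondrially encoded genes and 29 nuclear genes of the respiratory chain had no unadjusted p under 0.05, and DESeq2 called none of them. Of 13 erythroid and 15 B cell genes, 1 each had an unadjusted p under 0.05, and DESeq2 called none. The muscle median was -0.28, and over the alternatives it ran from -0.68 to 0.33. All 13 mitochondrially encoded genes had a negative difference (median -0.36, from -0.52 to -0.07 over 26 alternatives), as did all 29 nuclear genes of the respiratory chain (median -0.19, from -0.29 to 0.02). Without libraries 8, 9 and 12 these medians were -0.07 and 0.02. Mitochondrially encoded genes took 5 to 6.36% of counts in libraries 8, 9 and 12 and 2.19 to 2.92% elsewhere, and their part in the falls reported above was not tested. A difference was not detectable for these lists at the spread between these libraries.

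**Figure D5:**
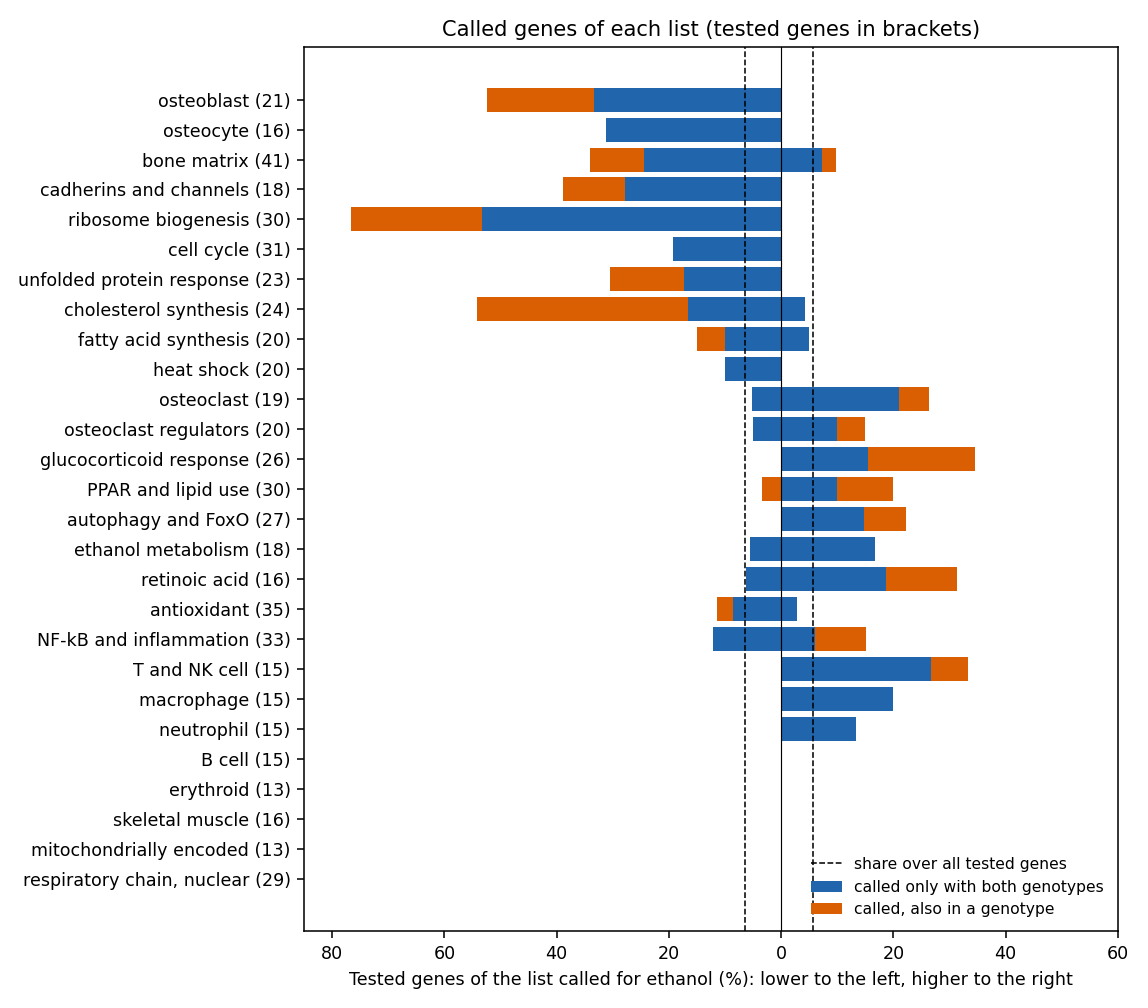
Percentage of each list's tested genes (number in brackets) called lower (left) or higher (right) for ethanol in edgeR's test, split into genes called only over both genotypes (blue) and genes also called in a genotype (orange); dashed lines are the shares over all tested genes, 6.44% lower and 5.73% higher. The ribosome biogenesis and osteoblast lists extend farthest to the left for the genes called only over both genotypes, and the T and NK cell list farthest to the right.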

How the data were processed

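The authors deposited raw counts per gene (49315 genes, 12 libraries) and a normalized signal table (17408 genes). Per the submitters' processing notes, the tools were Trimmomatic 0.36, STAR 2.5.2b and featureCounts of Subread 1.5.2, on GRCm38. The deposited signal equals the deposited count divided by 1 factor per library (relative spread 9.88e-10). It was used for gene symbols and in an alternative fit with limma. Other symbols came from an annotation of the same build.

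Counts were fitted in edgeR 4.0.16 (R 4.3.3) with the quasi-likelihood test, robust dispersion and TMM factors, on 18161 genes kept by filterByExpr (minimum count 10, total 15). One model held genotype and gavage (9 residual degrees of freedom), and another the 4 groups (8). P-values were adjusted by Benjamini-Hochberg over all tested genes at 0.05. Levels are CPM on TMM-scaled totals. The fit was tested on simulated counts. Alternatives used limma 3.58.1, DESeq2 1.42.0, other scalings and filters, covariates and omitted libraries.

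The members and lists were chosen with earlier results of these data known. Genes were named as the 15 largest rises and 15 largest falls (mean of at least 1 CPM, groups apart in each genotype, predicted genes and immune receptor segments left out), up to 4 members of each list by smallest p, Cat, and the 3 genes on either side of the threshold. Not all of these are printed, some being not reported here, and the other list members named were chosen after their values were seen. Promoter windows are from RefSeq.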

Additional observations from a re-analysis of the deposited data

Results flagged for a closer look

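Of 228 sets of 6 libraries examined (the PBS and the ethanol libraries of each gene printed in the text or ranked among the largest changes or the smallest p), 17 held a value far from the other 5, and chance alone gives about 1 in 20. Ethanol library 6 stood apart for 6 genes. It was higher for Serpina3n (63.7 CPM against 20.1 to 36), Kcnj15 (5.73 against 3 to 3.87), Kcnt1 (16.8 against 6.9 to 9.83) and Tlr7 (40.3 against 27.5 to 31.2). It was lower for P4ha2 (10.6 against 17.1 to 20.4) and Sar1a (98.3 against 109 to 112). Serpina3n belongs to a cluster of near-identical copies.

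Ethanol library 12 also stood apart for 6 genes, with higher values for Krt83 (8.27 CPM against 2.77 to 4.47) and Mrpl48 (32.8 against 27.6 to 29.5). It was lower for Gar1 (20.5 against 23.9 to 25.8), Hmox1 (97.2 against 156 to 189), Nop58 (56.2 against 70.4 to 77) and Top2b (172 against 202 to 209). Library 10 was low for Fmo1 (43.9 CPM against 61.7 to 65.2).

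Among the PBS libraries, library 8 was high for Stfa3 (3.28 CPM against 1.37 to 2.05) and low for Col24a1 (54.3 against 69.5 to 77.3) and Nop58 (80.6 against 90.8 to 94.2). Library 7 was high for Ptgs2 (1.93 CPM against 1.2 to 1.39).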

How the results depend on the processing

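No paired analysis was possible because the replicate numbers of the labels are not shared between groups. Without libraries 6 and 12, 1391 genes were called, 690 higher and 701 lower, and 1100 only over both genotypes. Without libraries 8, 9 and 12 that last count was 1049, and with each genotype fitted on its own 6 libraries it was 983. With 1 library left out, the called genes ranged from 1351 to 2213, those higher from 607 to 1082, those lower from 744 to 1153, those called only over both genotypes from 1238 to 1789, and differences between genotypes from 0 to 0. DESeq2 called 1 difference with its filter on mean counts and 1 without. The cause of these shifts was not tested. Of the 1774 genes, 47.5% were still called without libraries 6 and 12 and 67.3% without 8, 9 and 12, against 51.6 to 81.1% with 1 library left out. Those of the 1774 that were tested kept their direction in each of these fits. The fits reuse the libraries on which the 1774 were chosen, which largely fixes this outcome. For single named genes, 7511 alternative values kept their call, 981 lost it and 38 gained one. For the named genes called in edgeR's test of all 12 libraries, 0 values turned sign, which the reuse of the same libraries also largely fixes. Leaving out libraries 6 and 12, and DESeq2 without its filter, were chosen after seeing the data.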

Other observations

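Gene families outside the lists were examined after their members' values were seen, so their counts are descriptions. For reference, 5.73% of all tested genes were called higher and 6.44% lower. Several families of the early secretory route were lower with ethanol, largely through genes called only over both genotypes. Of 9 coatomer genes, whose proteins coat vesicles that return from the Golgi to the ER, 6 were called lower by edgeR, 5 of them only over both genotypes. Copa, the largest coatomer subunit, had 284 to 297 CPM with PBS and 254 to 260 CPM with ethanol, without overlap (log2 difference -0.17, SE 0.03, adjusted p = 0.0047). Of 14 genes of the COPII coat, which carries cargo out of the ER, 6 were lower. Sar1a, the GTPase that starts this coat, had 124 to 150 CPM with PBS and 98.3 to 112 CPM with ethanol (-0.32, SE 0.05, adjusted p = 0.0024). Both counts stayed at 6 when any 1 library was left out. The oligosaccharyltransferase, which attaches sugar chains to new proteins, had 4 of 12 genes lower, among them Ostc (-0.31, SE 0.05, adjusted p = 0.0041). Its count was 3 without library 2, 3, 4, 6, 8, 9, 11 or 12. Of 13 FKBP prolyl isomerases 6 were lower and 1 higher, and the lower ones included Fkbp11 (-0.83, SE 0.16, adjusted p = 0.0055). That lower count was 4 without library 1, 2, 3, 9 or 12.

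Toll-like receptors, which sense microbial molecules, were higher in 5 of 12 cases, and the count was 5 with any 1 library left out. Tlr13 had 41.4 to 64.5 CPM with PBS and 60.7 to 78.2 CPM with ethanol (0.48, SE 0.10, adjusted p = 0.0077), and Tlr7 21.6 to 25.9 CPM with PBS and 27.5 to 40.3 CPM with ethanol (0.41, SE 0.08, adjusted p = 0.0078). The arms of Tlr7 were apart and those of Tlr13 overlapped. The ABCA lipid transporters had 6 of 11 genes higher, 5 only over both genotypes. That count of 6 was 4 without library 1, 2, 3, 4, 5, 8 or 11. The flavin-containing monooxygenases had 3 of 4 genes higher, of which Fmo1 differed by 0.63 (SE 0.11, adjusted p = 0.0046). The third, Fmo4, did not pass without library 1, 2, 3, 4, 5, 6, 7 or 11 (adjusted p up to 0.0943). Of 79 genes of the mitochondrial ribosome 11 were lower, all only over both genotypes, where 5.19% of all tested genes were. The count called lower was 6 without library 3, 6, 8, 9, 10 or 11, 7 without library 2 and 16 without library 7. The 5.19% comes from all 12 libraries and is no measure for these counts. Of the 79 genes, 66 had a negative difference (median -0.085). Of 15 host genes of small nucleolar RNAs 5 were lower, including Snhg5 (-0.33, SE 0.06, adjusted p = 0.0029), and 3 without library 3.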
